A study of Homo sapiens with 24 samples.

Results

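The 42 genes studied here are genes of the cell cycle and of DNA replication. They were followed in HepG2, a line from a human hepatocellular carcinoma that divides continuously in culture, expressing wild-type or mutant glucocorticoid receptor. The genes were the rows of the deposited count table whose symbol was on a fixed list of 42, out of 60683 genes in the table. Of these, 41 had enough counts to be tested, among 16196 genes tested in all. CDKN1C, a CDK inhibitor, was not tested, because it had 12 counts in total, in 8 of the 24 libraries.

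Poly(A) RNA was sequenced from cells whose own receptor gene, NR3C1, had been knocked out with CRISPR/Cas9 (GR-/-) and which then received a Ty1-tagged receptor from a doxycycline-inducible lentivirus. The receptor was WT, K154R, in which 1 lysine was replaced by arginine, or K154Q, in which it was replaced by glutamine. Cells of each of the 3 genotypes were treated for 6 h with the synthetic glucocorticoid dexamethasone at 1 µM or with ethanol as vehicle, which made 6 groups of 4 libraries and 24 libraries in all. The 4 replicates of a group came from 2 independent experiments with 2 transductions each, per the labels, and carry the numbers 1 to 4; the sources used here do not say which number belongs to which experiment. All 6 groups, vehicle groups included, shared the knockout, the lentiviral transduction, 24 h of doxycycline at 0.3 to 1 µg/mL chosen to match receptor protein, and a further 24 h in charcoal-stripped medium. The sources used here do not say whether the GR-/- line was 1 clone. No group without receptor and no untransduced group was analysed here.

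A dividing cell loads the replicative helicase MCM2-7 onto its origins in G1 through ORC1, CDC6 and CDT1, then activates it, copies its DNA with PCNA as the sliding clamp and with nucleotides made by ribonucleotide reductase (RRM1, RRM2) and thymidylate synthase (TYMS). Entry into S phase is set by cyclins D and E with their CDKs and by E2F transcription factors, which switch on many replication genes, and is held back by the CDK inhibitors CDKN1A, CDKN1B and CDKN1C. Genes of G2 and mitosis peak later, and many of them carry a short promoter element called CHR, at which the DREAM complex represses them in resting cells. Glucocorticoids are known to slow the division of several cell types.

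Letters of these 2 promoter classes were searched in the sequence of the genes. RefSeq promoter windows (GRCh38.p14, 250 bases before to 50 after the annotated start) were matched by symbol for 32 of the 42 genes. Letters were searched on both strands, and overlaps between motifs were allowed. The E2F site was searched as TTTCCCGC, TTTGGCGC, TTTGCCGC or TTTCGCGC. The CHR was searched as TTTGAA or, in its less frequent form, TTCGAA. A box of the letters CCAAT, which nuclear factor Y binds, was searched as well. The half-site of the glucocorticoid receptor was searched as AGAACA. An E2F site was present in 11 of the 32 (34.4%) against 3.33% of 27305 windows of all genes, and a CHR in 12 (37.5%) against 16.6%. A CCAAT box was present in 24 (75%) against 35.7%, and the receptor half-site in 3 (9.38%) against 14.9%. Among the origin licensing and helicase genes 7 of 8 windows held an E2F site and 1 of 8 a CHR, whereas among the spindle and chromosome genes 0 of 6 held an E2F site and 4 of 6 a CHR. Mitotic kinase and checkpoint genes had 0 of 5 and 4 of 5. Other roles were less divided, with 2 of 4 and 1 of 4 for synthesis genes and 1 of 5 and 2 of 5 for S-to-M genes. G1 to S genes had 1 of 2 and 0 of 2, and CDK inhibitors had 0 of 2 for both. In each class of genes by role, the gene with the smallest p for a difference between replicate numbers, described further on, is shown here, as 200 bases before the start, 5′ to 3′ on the strand of the gene, with matches to the searched letters in capitals. The same 200 bases of CDKN1A held no match and are not printed. The stretch printed for CDT1, a licensing factor, is chr16:88803589-88803788 (plus strand) and has 1 E2F site.
CDT1: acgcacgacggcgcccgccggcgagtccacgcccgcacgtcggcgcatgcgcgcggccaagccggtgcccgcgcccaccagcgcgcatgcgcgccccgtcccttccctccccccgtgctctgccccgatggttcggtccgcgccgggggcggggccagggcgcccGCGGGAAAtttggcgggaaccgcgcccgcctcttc
For RRM1, the large subunit of ribonucleotide reductase, it is chr11:4094485-4094684 (plus strand), with 1 CHR and 1 CCAAT box.
RRM1: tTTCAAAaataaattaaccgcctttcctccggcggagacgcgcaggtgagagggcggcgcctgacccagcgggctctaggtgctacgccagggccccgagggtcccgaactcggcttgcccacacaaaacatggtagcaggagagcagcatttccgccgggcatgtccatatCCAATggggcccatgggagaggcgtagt
For E2F1, an S-phase transcription factor, it is chr20:33686386-33686585 (minus strand), with 2 E2F sites and 3 CCAAT boxes.
E2F1: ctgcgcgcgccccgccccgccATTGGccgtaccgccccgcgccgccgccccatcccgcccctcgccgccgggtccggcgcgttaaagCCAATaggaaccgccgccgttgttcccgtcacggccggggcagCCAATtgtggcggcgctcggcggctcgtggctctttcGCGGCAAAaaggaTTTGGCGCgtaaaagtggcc
For CCNB1, which encodes the mitotic cyclin B1, it is chr5:69166950-69167149 (plus strand), with 2 CCAAT boxes.
CCNB1: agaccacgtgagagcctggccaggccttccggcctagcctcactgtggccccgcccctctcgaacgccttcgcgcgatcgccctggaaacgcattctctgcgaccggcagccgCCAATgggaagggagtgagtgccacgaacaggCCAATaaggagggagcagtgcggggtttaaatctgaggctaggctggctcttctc
For BUB1B, a spindle checkpoint kinase, it is chr15:40160869-40161068 (plus strand), with 1 CHR, close to the start.
BUB1B: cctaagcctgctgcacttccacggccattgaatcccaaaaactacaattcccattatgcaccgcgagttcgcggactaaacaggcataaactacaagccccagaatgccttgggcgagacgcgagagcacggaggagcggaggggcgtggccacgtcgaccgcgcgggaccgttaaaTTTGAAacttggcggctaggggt
For KIF11, the kinesin that separates the spindle poles, it is chr10:92592930-92593129 (plus strand), with 1 CHR and 1 CCAAT box.
KIF11: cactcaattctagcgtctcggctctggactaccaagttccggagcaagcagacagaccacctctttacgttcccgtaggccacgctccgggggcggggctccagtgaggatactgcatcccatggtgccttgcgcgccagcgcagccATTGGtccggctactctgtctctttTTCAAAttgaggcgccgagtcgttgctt
Matches in these letters describe the windows and do not show binding.

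Libraries held 23863672 to 42072021 counts. Genes of the mitochondrial genome took 7.61% to 13.2% of them. NR3C1, whose counts come from the introduced receptor and from any transcript of the disrupted gene, did not pass the test for dexamethasone in any genotype (log2 differences of -0.08, -0.08 and 0.01 in WT, K154R and K154Q, each with an SE of 0.14). FKBP5, a direct target of the receptor, rose in all 3 (0.98, 1.17 and 1.04, SE 0.09 each, with adjusted p-values of 3.34e-06, 8.99e-08 and 9.4e-07 by edgeR's quasi-likelihood test with Benjamini-Hochberg adjustment). Summed over 10 hepatocyte lineage markers, libraries held 45100 to 58300 CPM (counts scaled to a common library size). Endothelial markers summed to 0.946 to 2.51 CPM and fibroblast markers to 17.1 to 38 CPM. Nearly all of the fibroblast sum came from PDGFRB (median 25.9 CPM), as the other 5 markers had medians under 1 CPM. Of the 5 leukocyte markers, which summed to 484 to 1020 CPM, PTPRC and CD3E were at 0 in all libraries and nearly all counts came from LYZ. Dexamethasone-treated WT replicate 4 stood apart over the 41 genes: it was the lowest of the 24 libraries for 17 of them (41.5%), against 7.93% of all genes tested. Vehicle-treated K154R replicate 2 was the highest for 11 (26.8%, against 10.5% of all genes). The direction counts of treatment and genotype, and the dexamethasone responses fitted with a replicate block, are given with and without these libraries where they enter.

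All 41 tested genes were transcribed in every group. Scaled for gene length, as RPKM (CPM per kilobase of the deposited gene length), the median over 24 libraries was highest for PCNA at 274, MCM3 at 147, TPX2 (a spindle assembly factor) at 129, TOP2A (the topoisomerase that untangles replicated DNA) at 107 and CCNB1 at 101. It was lowest for CCNE2, cyclin E2, at 0.778, with libraries from 0.466 to 0.987. CENPE, a kinetochore kinesin, followed at 6.71 and CDC25C, the phosphatase that activates CDK1, at 7.62. Cyclin E1 (CCNE1) had a median of 12.1, its partner CDK2 of 10.9 and cyclin D1 (CCND1) of 84.4. Among the CDK inhibitors, CDKN1B (p27) had 34.9 and CDKN1A (p21) 19.1, while CDKN1C (p57) reached at most 3 counts in a library. MKI67, the Ki-67 proliferation marker, had 32.4. Within the licensing and helicase genes the medians ran from 13.3 for ORC1 to 147 for MCM3.

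After 6 h of dexamethasone no gene of the 41 passed the test in any genotype (edgeR's quasi-likelihood test, Benjamini-Hochberg adjusted p under 0.05 over all genes tested). Of all genes tested, 0.161% were called in WT, 0.309% in K154R and 0.130% in K154Q. Averaged over the 3 genotypes the share was 1.06%, with 166 genes higher and 6 lower, and again 0 of the 41 were among them. The differences were small in size: the average response of the 41 genes ran from -0.11 to 0.13 (log2), with a median of -0.06 against -0.01 for all genes, and the 95% intervals of single genes reached from -0.25 to 0.35. Its smallest adjusted p was 0.741, for UBE2C. Unadjusted p-values were under 0.05 for 0 of the 41 in the average, in K154R and in K154Q, and for 2 in WT, ORC1 and MCM2. DESeq2 also called 0 in each response.

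**Figure D1:**
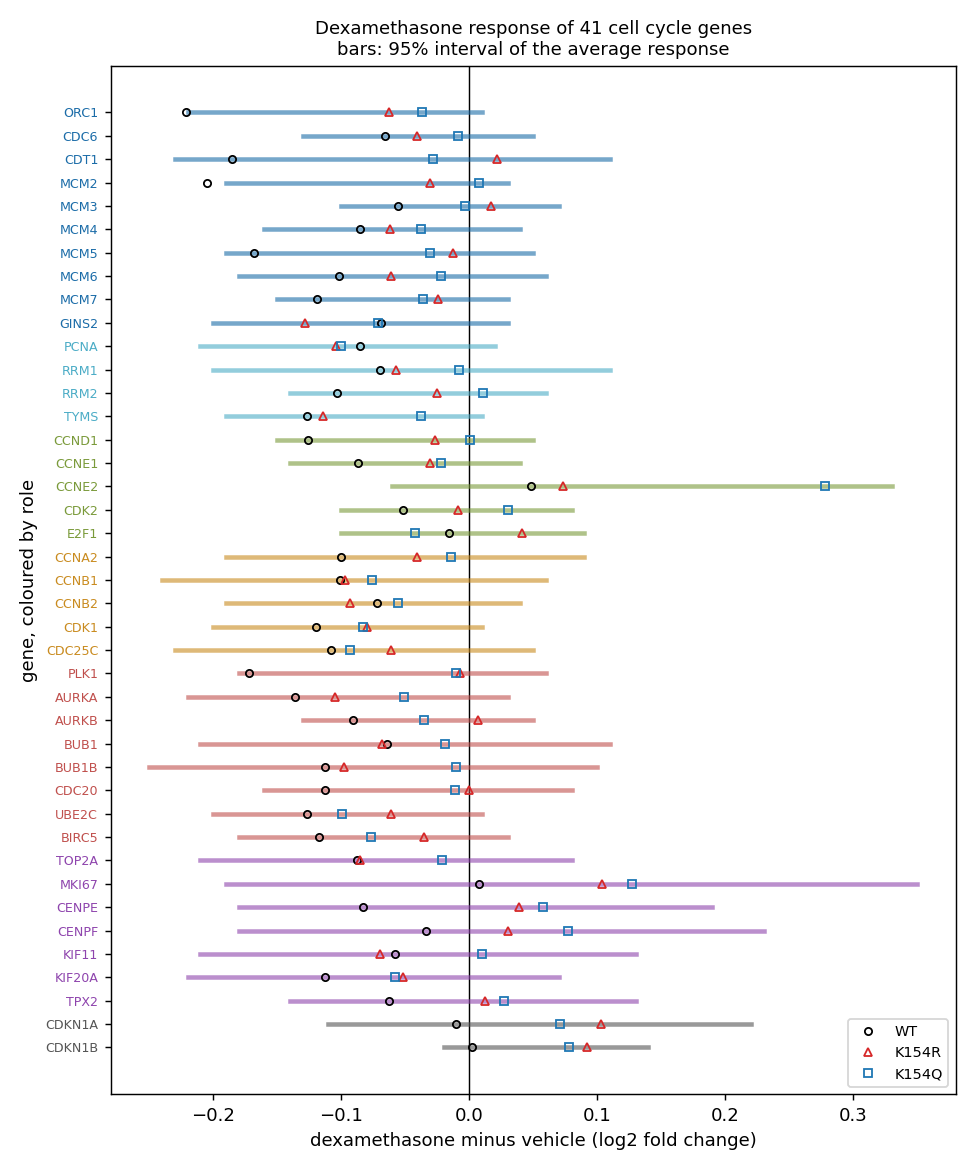
Log2 difference, dexamethasone minus vehicle, of the 41 tested genes by role, with circles for WT, triangles for K154R and squares for K154Q and bars for the 95% interval of the average over genotypes. Most averages lie just below 0, between -0.11 and 0.13, and 0 of the 41 genes passed the test.

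Most of the small differences lay on the same side. The average response was below zero for 35 of the 41 genes, against 52.3% of all genes tested. It was below zero for 38 of 41 in WT (median -0.09), 30 in K154R (median -0.04) and 29 in K154Q (median -0.02), against 52.8%, 51.9% and 50.9% of all genes. These counts and medians moved in both directions when single libraries were left out. Here and in the genotype comparisons below, the other libraries of the same number stayed in, so the numbers were then unbalanced over groups. In WT they ran from 28 (median -0.03) without dexamethasone-treated replicate 4 to 39 (median -0.15) without dexamethasone-treated replicate 2. In K154R they ran from 21 (median -0.004) without vehicle-treated replicate 2 to 33 (median -0.061) without vehicle-treated replicate 4. In K154Q they ran from 17 (median 0.015) without dexamethasone-treated replicate 3 to 33 (median -0.041) without dexamethasone-treated replicate 1, with the lowest median, -0.06, without vehicle-treated replicate 3. The average ran from 32 to 36 genes below zero, with medians from -0.08 to -0.03, and had 33 without dexamethasone-treated WT replicate 4 and 34 without vehicle-treated K154R replicate 2. A fit that also held the replicate number, described further on, was repeated only without dexamethasone-treated WT replicate 4 and without vehicle-treated K154R replicate 2. There WT had 39 below zero (median -0.093), and 35 (median -0.038) without dexamethasone-treated WT replicate 4. K154R had 29 (median -0.031), and 27 (median -0.027) without vehicle-treated K154R replicate 2. The average had 35 (median -0.059), 32 (median -0.035) without the WT library and 35 (median -0.051) without the K154R library.

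All 10 genes of origin licensing and the helicase lay below zero in the average response, with a median of -0.06. The share of all genes below zero is given above. Genes counted by role, here and below, were measured in the same libraries and are not independent replicates of the treatment. ORC1, a subunit of the complex that marks origins, had 45.1, 46.3, 40.5 and 47.3 CPM in the 4 vehicle-treated WT libraries, replicates 1 to 4, and 41.8, 43.3, 35.5 and 33.2 CPM in the 4 dexamethasone-treated ones. Each dexamethasone value was below the vehicle value of the same number, but the groups overlapped. The WT difference in ORC1 was -0.22 (log2, SE 0.10, unadjusted p = 0.0309, adjusted p = 1 by edgeR), and -0.14 without dexamethasone-treated WT replicate 4. In K154R, ORC1 had 46.2, 44.9, 38.5 and 41.3 CPM in vehicle and 45.3, 38.8, 39 and 40.5 CPM in dexamethasone. In K154Q it had 44.3, 44.1, 35.8 and 41.6 CPM against 45.7, 41.2, 35 and 39.7 CPM. In both mutants the groups overlapped almost fully, with log2 differences of -0.06 and -0.04. MCM2, a subunit of the helicase ring, had 181, 178, 165 and 194 CPM in vehicle-treated WT and 174, 176, 134 and 139 CPM in dexamethasone-treated WT. Here replicates 3 and 4 were the low ones, and the difference of -0.20 (SE 0.09, unadjusted p = 0.0341, adjusted p = 1 by edgeR) was -0.14 without replicate 4. In the mutants MCM2 differed by -0.03 and 0.01. GINS2, a subunit of the GINS complex that completes the active helicase, had an average difference of -0.09 (SE 0.06, adjusted p = 0.843). MCM3, the most abundant helicase gene per length, had -0.01.

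The 4 genes of DNA synthesis and nucleotide supply were all below zero in the average, with a median of -0.07. TYMS, which makes thymidylate, had 59.4, 56.9, 50.4 and 61.7 CPM in vehicle-treated WT and 56.3, 59.1, 47.6 and 45.9 CPM in dexamethasone-treated WT. It had 60.2, 61.6, 50.8 and 56.5 CPM against 53.4, 51.1, 55.4 and 51.7 CPM in K154R, and 59.3, 55.5, 52.9 and 57.9 CPM against 55, 58.5, 51.1 and 55 CPM in K154Q. The groups overlapped in each genotype, and 9 of 12 same-number pairs were lower with dexamethasone. Its average difference was -0.09 (SE 0.05, adjusted p = 0.744 by edgeR). PCNA ranged from 344 to 412 CPM in vehicle-treated WT and from 329 to 428 CPM in dexamethasone-treated WT, and its average difference of -0.10 (SE 0.06) had an adjusted p of 0.828. RRM2 averaged -0.04 (SE 0.05).

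Genes of G1 to S control had a median of -0.01, with 4 of 5 below zero. CCND1, which drives passage through G1, had 438, 423, 432 and 452 CPM in vehicle-treated WT and 413, 400, 404 and 383 CPM in dexamethasone-treated WT. This was the 1 gene of the 41 whose 4 dexamethasone libraries all lay below the 4 vehicle libraries in WT, where 2.03% of all genes had groups that did not overlap. Its difference was -0.13 (SE 0.09, adjusted p = 1 by edgeR). In K154R, CCND1 had 500, 392, 363 and 390 CPM against 464, 382, 389 and 378 CPM, and in K154Q 390, 391, 421 and 424 CPM against 401, 379, 445 and 403 CPM, with differences of -0.03 and 0.00. In K154R and K154Q, 0 of the 41 genes had groups that did not overlap, where 1.96% and 1.85% of all genes did. CCNE2, the least abundant tested gene, lay above zero in the average at 0.13 (SE 0.09). In K154Q it had 3.62, 2.99, 2.9 and 2.31 CPM in vehicle and 4.34, 3.56, 3.23 and 3.26 CPM in dexamethasone, each higher than the vehicle library of its number (difference 0.28, SE 0.16, adjusted p = 1 by edgeR). For CDK2 the average difference was -0.01.

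The 5 cyclins and regulators that act from S phase to mitosis were all below zero in the average, with a median of -0.09. CDK1, the kinase that drives mitosis, had 140, 131, 122 and 120 CPM in vehicle-treated WT and 126, 124, 118 and 105 CPM in dexamethasone-treated WT. It had 124, 141, 128 and 110 CPM against 120, 119, 131 and 107 CPM in K154R, and 136, 127, 118 and 123 CPM against 119, 131, 110 and 117 CPM in K154Q. In 10 of 12 same-number pairs the dexamethasone library was the lower one, yet the groups overlapped in each genotype. The differences were -0.12, -0.08 and -0.08 in WT, K154R and K154Q, and the average of -0.09 (SE 0.05) had an adjusted p of 0.744 by edgeR. CCNB1 had an average difference of -0.09 (SE 0.07) and CCNA2, cyclin A2, of -0.05 (SE 0.07).

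The 8 mitotic kinases, checkpoint and ubiquitination genes were also all below zero in the average, with a median of -0.07. UBE2C, the ubiquitin-conjugating enzyme of the anaphase-promoting complex, had the smallest p of the 41. It had 83.6, 72.6, 71.7 and 79.9 CPM in vehicle-treated WT and 75.7, 71.5, 68 and 66.5 CPM in dexamethasone-treated WT. It had 74.2, 81.1, 85.1 and 70.2 CPM against 70.9, 64.3, 89.4 and 73.4 CPM in K154R, and 79.3, 75.1, 72.5 and 79.5 CPM against 71.9, 73.4, 69.3 and 71.6 CPM in K154Q. In K154Q only replicate 2 in dexamethasone reached into the vehicle range, whereas in K154R the highest and the lowest library were both dexamethasone-treated. Its average difference was -0.10 (SE 0.05, 95% interval -0.20 to 0.01, adjusted p = 0.741 by edgeR). AURKA, the kinase of spindle poles, averaged -0.10 (SE 0.06, adjusted p = 0.837), with 265, 268, 224 and 234 CPM in vehicle-treated WT and 241, 268, 207 and 186 CPM in dexamethasone-treated WT. BIRC5, survivin, averaged -0.08 (SE 0.05, adjusted p = 0.864), with 210, 217, 180 and 220 CPM against 205, 219, 178 and 161 CPM. In both genes the replicates differed from each other by more than the treatments did, and both were called by replicate number, described further on.

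Among spindle and chromosome genes 4 of 7 were below zero, with a median of -0.01. TOP2A was the lower in dexamethasone in 11 of 12 same-number pairs. It had 773, 777, 694 and 614 CPM in vehicle-treated WT and 754, 764, 625 and 547 CPM in dexamethasone-treated WT. Its average difference was -0.07 (SE 0.07, adjusted p = 0.906 by edgeR). MKI67 lay on the other side, at 0.08 (SE 0.13, adjusted p = 0.942), and was lower in 4 of 12 pairs. It had 477, 490, 443 and 318 CPM in vehicle-treated WT and 525, 480, 358 and 374 CPM in dexamethasone-treated WT. The spread within each group was wide. It holds a difference between replicate numbers (span 0.68 in log2, described further on) that both treatments share. Overlap of groups, here and in the roles above, therefore says little on its own about the difference between treatments.

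The 2 tested CDK inhibitors were above zero in the average and did not pass the test. CDKN1A had 46.3, 57, 57.4 and 62.8 CPM in vehicle-treated WT and 44.7, 58.5, 64.3 and 54.5 CPM in dexamethasone-treated WT. It had 47.5, 65.6, 55.8 and 54.9 CPM against 52.2, 58.8, 67.9 and 61.4 CPM in K154R, and 41.6, 54.2, 58.1 and 64.3 CPM against 44.2, 56.4, 65.8 and 62.7 CPM in K154Q. Replicate 1 was the lowest in all 6 groups, and the groups overlapped. The average difference of CDKN1A was 0.06 (SE 0.08, 95% interval -0.11 to 0.22, adjusted p = 0.933 by edgeR). That of CDKN1B was 0.06 (SE 0.04, 95% interval -0.02 to 0.14, adjusted p = 0.864).

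Mean scores describe the same genes in the same libraries per library, and so are no further support for the directions above. The replication score, the mean log2 CPM of the 14 licensing and synthesis genes, was 7.33 ± 0.10 (SD, n = 4) in vehicle-treated WT and 7.21 ± 0.13 in dexamethasone-treated WT. It was 7.30 ± 0.08 and 7.25 ± 0.05 in K154R, and 7.28 ± 0.09 and 7.26 ± 0.07 in K154Q. The mitotic score, over the 20 genes from the S-to-M cyclins to the spindle, was 7.30 ± 0.11 and 7.20 ± 0.18 in WT, 7.25 ± 0.12 and 7.22 ± 0.10 in K154R, and 7.24 ± 0.14 and 7.22 ± 0.13 in K154Q. In each genotype the libraries of the 2 treatments overlapped. Dexamethasone-treated WT replicate 4 was the lowest library for both, at 7.07 and 6.99. Without it the WT differences of -0.12 and -0.10 were -0.07 and -0.03. Vehicle-treated WT replicate 4, at 7.43 and 7.20, stayed in, so these values also hold a difference between numbers. The mean mitotic score was 7.34, 7.35, 7.14 and 7.12 in numbers 1 to 4. In bulk RNA, fewer cells in a cycle phase and less RNA of these genes per cell cannot be told apart.

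**Figure D2:**
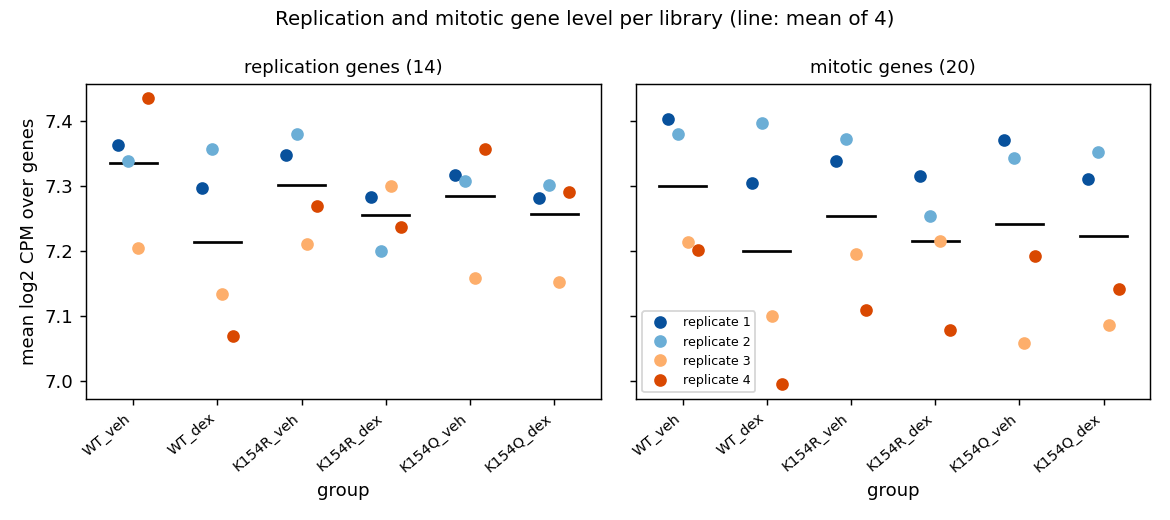
Replication score (14 genes) and mitotic score (20 genes), as mean log2 CPM per library, by group, with points coloured by replicate number and a line at the mean of the 4 libraries. Treatments overlap in each genotype, and replicates 3 and 4 sit below replicates 1 and 2 in the mitotic score.

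Since replicates with the same number varied together, as the later paragraphs show, the responses were also fitted with the replicate number as a block. The block raised the share of all genes called to 0.790% in WT, 1.23% in K154R, 0.722% in K154Q and 4.23% in the average, and again 0 of the 41 genes passed. The smallest adjusted p in the average was 0.0898, for ORC1 at -0.11. Unadjusted p-values under 0.05 were then found for 14 of 41 in the average (34.1%, against 16.9% of all genes), each of them with a difference below zero. In WT there were 8 (19.5%, against 10.2%), in K154R 0 (against 8.05%) and in K154Q 1 (2.44%, against 6.24%). Without dexamethasone-treated WT replicate 4 the counts were 5 of 41 in the average, where 15% of all genes were, and 4 of the 5 were below zero. In WT there were then 2 of 41, where 8.26% of all genes were. The members thus no longer exceeded the share of all genes in either. The smallest adjusted p in the average was 0.194. Without vehicle-treated K154R replicate 2 the counts were 11 in the average (9 below zero), 8 in WT and 2 in K154R (1 below zero). The shares of all genes were then 14.8%, 10.2% and 8.22%. The numbers met the criterion for pairing in K154R and K154Q but not in WT or the average, so the WT and average values with the block are given as a description only.

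The receptor forms were compared next, to ask whether the response of these genes depended on the replaced lysine. No gene of the 41 differed in its response between genotypes, and neither did any gene of the 16196: the share called was 0% in all 3 comparisons of responses, each mutant with WT and the mutants with each other. Unadjusted p-values were under 0.05 for 0 of the 41 in each, and DESeq2 called 0. The 95% intervals of single genes reached from -0.57 to 0.76, from -0.54 to 0.78 and from -0.64 to 0.69, so differences of that size were not excluded. The response was less negative than in WT for 36 of 41 genes in K154R (median difference 0.06) and for 38 in K154Q (median 0.08). These comparisons share the WT libraries, and without dexamethasone-treated WT replicate 4 the difference was below zero for 21 and 19 of the 41, with medians of -0.005 and 0.009. Without dexamethasone-treated WT replicate 2 it was below zero for 0 and 1 of the 41 (medians 0.121 and 0.126), and for K154R minus WT without vehicle-treated K154R replicate 2 for 1 (median 0.092). MCM2 had the smallest p in both, with differences of 0.17 (SE 0.13) and 0.21 (SE 0.13) and adjusted p-values of 1 by edgeR. ORC1 followed with 0.16 and 0.18 (SE 0.14 each), and PLK1, a mitotic kinase, with 0.17 and 0.16 (SE 0.14 each). With the replicate number as a block 0 of the 41 were called in the 3 comparisons of responses. Unadjusted p-values were then under 0.05 for 0, 2 and 0 of the 41, against 2.19%, 3.34% and 1.77% of all genes.

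Levels within a treatment did not separate the genotypes either. The share of all genes called was 0% in each of the 6 contrasts, K154R and K154Q against WT and K154Q against K154R, in vehicle and under dexamethasone. Without the replicate number as a block, 0 of the 41 genes were called, 0 had an unadjusted p under 0.05 and DESeq2 called 0. In vehicle, 30 genes were below WT in K154R (median -0.03) and 38 in K154Q (median -0.05). With single libraries left out the first count ran from 18, without vehicle-treated K154R replicate 4, to 39 (median -0.057), without vehicle-treated K154R replicate 2. The second ran from 20, without vehicle-treated K154Q replicate 3, to 39 (median -0.086), without vehicle-treated WT replicate 3. Under dexamethasone 13 genes were below WT in each mutant (medians 0.01 and 0.02), without dexamethasone-treated WT replicate 4 the counts were 29 and 31, and without replicate 2 of that group they were 4 and 3. The widest single-gene intervals in these contrasts reached -0.61 and 0.52. The members with the smallest p were RRM2, which supplies deoxynucleotides, in vehicle (-0.12 in K154R and -0.11 in K154Q against WT, SE 0.08 each) and under dexamethasone PLK1 in K154R (0.16, SE 0.10) and CCNE1 in K154Q (0.11, SE 0.07), all with an adjusted p of 1 by edgeR. With the replicate number as a block 0 of the 41 were called. Unadjusted p-values were then under 0.05 for 3, 1 and 0 in vehicle, in the order above, against 5.51%, 3.57% and 5.6% of all genes. Under dexamethasone they were for 3, 2 and 1, against 5.82%, 7.68% and 11.2%. Over all genes the block called 4, 4 and 2 in vehicle and 2, 5 and 2 under dexamethasone. Only the vehicle contrasts and K154Q against K154R under dexamethasone met the criterion for pairing.

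More of these genes differed between replicate numbers than between treatments or genotypes. In a fit of group and number over all 24 libraries, 34 of the 41 genes differed between the 4 numbers (82.9%, against 63.4% of all genes tested). The span between the highest and the lowest number had a median of 0.24 (log2) over the 41 genes and 0.31 over all genes, so these genes were called more often than all genes while their spans were not wider. The listed genes and all genes were not matched for expression level, here and in the shares by number below. For 23 of the 24 libraries the closest library of another group, over these genes, carried the same number. By role, 9 of 10 licensing genes, 3 of 4 synthesis genes, 3 of 5 G1 to S genes, 5 of 5 S-to-M cyclins and regulators, 6 of 8 mitotic kinase and checkpoint genes, 7 of 7 spindle and chromosome genes and 1 of 2 CDK inhibitors were called. PCNA, MCM7, CCND1, CCNE1, AURKB, UBE2C and CDKN1B were not. UBE2C, with the smallest p for dexamethasone, had a span of 0.06 (adjusted p = 0.743).

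**Figure D3:**
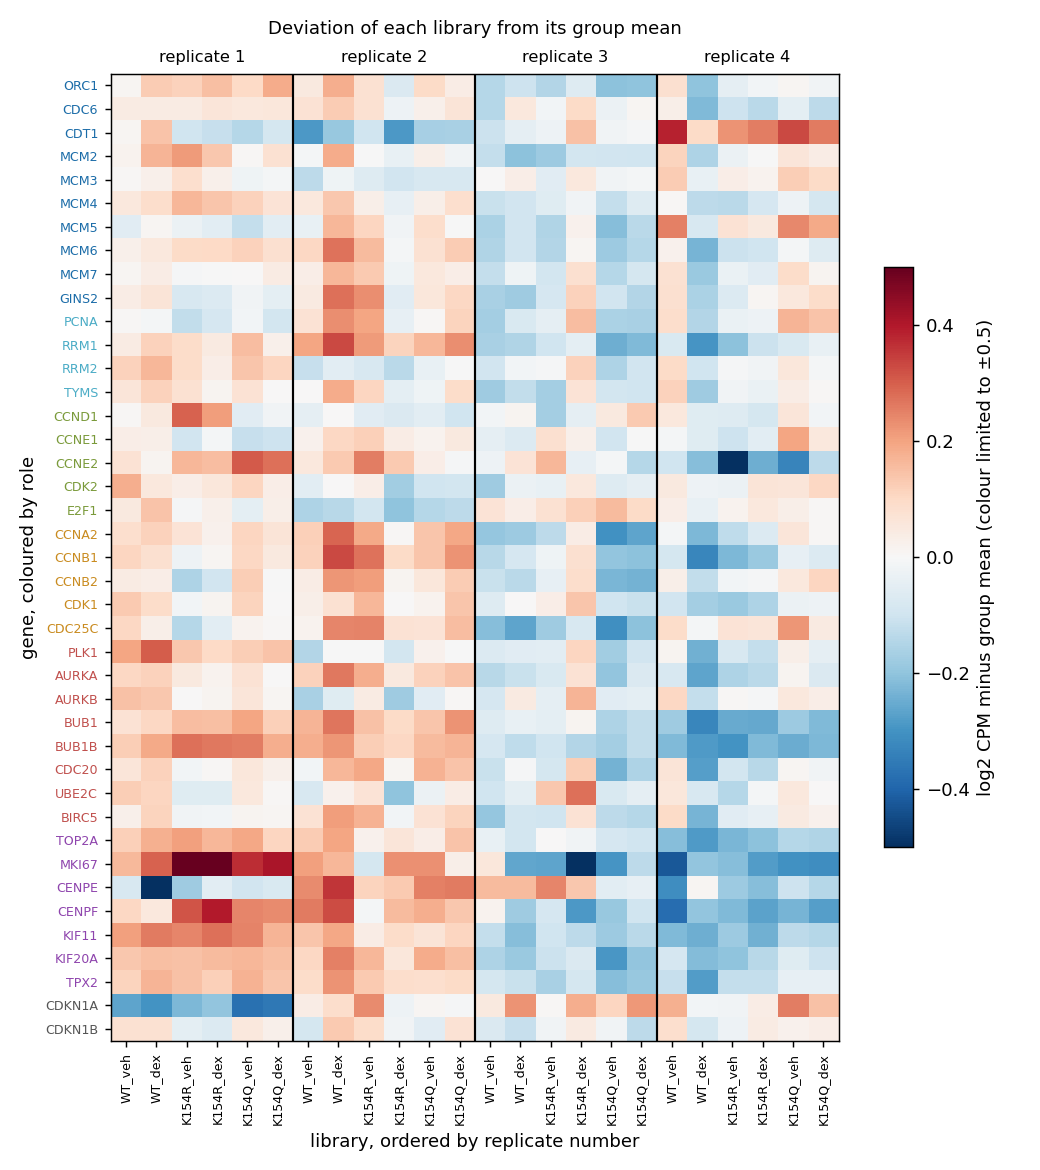
Log2 CPM of each gene minus the mean of its group, in libraries ordered by replicate number, with colours limited at ±0.5. BUB1, BUB1B, KIF11, KIF20A, TPX2, CENPF and MKI67 are above the group mean on average in numbers 1 and 2 and below it in 3 and 4, CDKN1A is lowest in number 1, CDT1 is highest in number 4, and UBE2C shows little order.

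Spindle and checkpoint genes had the smallest p-values. BUB1B had a lowest, median and highest level of 91.3, 95.6 and 98.6 CPM over the 6 libraries of number 1, and of 81.5, 92.3 and 101 CPM in number 2. It had 68.6, 75.3 and 84.3 CPM in number 3 and 65.1, 68.5 and 76.8 CPM in number 4. The libraries of number 1 all lay above those of numbers 3 and 4, and the span of 0.47 (log2) had an adjusted p of 1.17e-09 by edgeR. KIF11 had 124, 129 and 132 CPM in number 1, 110, 116 and 126 CPM in number 2, 94.5, 98.1 and 106 CPM in number 3, and 87.6, 97.3 and 99.6 CPM in number 4. Numbers 1 and 2 were entirely above numbers 3 and 4, with a span of 0.43 (adjusted p = 6.04e-09). MKI67 had the widest span of the 41 genes, 0.68 or 1.6-fold (adjusted p = 2.63e-07). It had 477, 544 and 591 CPM in number 1, 358, 466 and 490 CPM in number 2, 287, 339 and 443 CPM in number 3, and 318, 331 and 374 CPM in number 4. All libraries of number 1 lay above those of 3 and 4, while number 2 overlapped with both.

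BUB1, the checkpoint kinase that works with BUB1B, had a span of 0.41 (adjusted p = 6.24e-08 by edgeR), with medians of 136, 142, 122 and 106 CPM in numbers 1 to 4. KIF20A, a kinesin of cytokinesis, had a span of 0.32 (adjusted p = 2.86e-07) and medians of 118, 122, 95.7 and 95.8 CPM. CENPF, a kinetochore protein, had a span of 0.49 (adjusted p = 6.77e-07) and medians of 327, 313, 254 and 230 CPM. In these 3 genes numbers 1 and 2 were close to each other and above 3 and 4. TOP2A had a span of 0.37 (adjusted p = 7.4e-07) and medians of 757, 708, 632 and 588 CPM. RRM1 had a span of 0.36 (adjusted p = 1.82e-06) and medians of 146, 157, 124 and 125 CPM. TPX2 had medians of 514, 508, 421 and 437 CPM.

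Some genes took other patterns. CDT1 was highest in number 4, with 101, 126 and 139 CPM, and lowest in number 2, with 82.9, 91 and 96.5 CPM. Numbers 1 and 3 lay between, at medians of 98.8 and 104 CPM, and the span was 0.46 (adjusted p = 3.18e-06 by edgeR). CDKN1A was lowest in number 1, with 41.6, 45.5 and 52.2 CPM, below every library of the other numbers, whose medians were 57.7, 61.2 and 62.1 CPM. Its span was 0.42 (adjusted p = 5.39e-06). CENPE was highest in number 2, with a median of 81.7 CPM, and lowest in number 4, with 59.8 CPM, and number 1 at 63.1 CPM was close to number 4. CDC25C was lowest in number 3, at a median of 21.9 CPM against 24.6, 26.9 and 26.4 CPM in numbers 1, 2 and 4. The 41 genes did not follow 1 common order of the numbers.

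**Figure D4:**
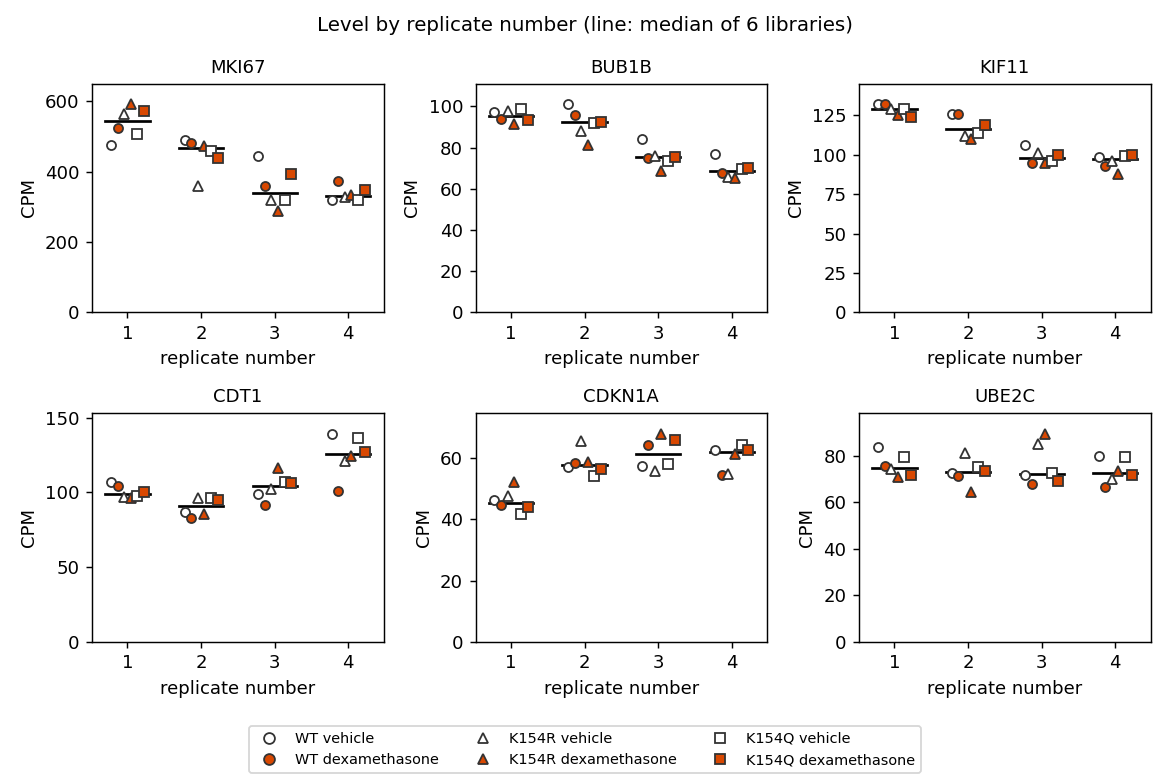
CPM of MKI67, BUB1B, KIF11, CDT1, CDKN1A and UBE2C in each library by replicate number, with a line at the median of the 6 libraries. MKI67, BUB1B and KIF11 are high in number 1 and low in 3 and 4, CDT1 is highest in number 4, CDKN1A is lowest in number 1, and UBE2C shows no order.

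Because the labels give 2 experiments of 2 transductions, the numbers were also contrasted in pairs; the pairing of 1 and 2 against 3 and 4 was chosen after the values were seen, so these calls describe the pattern. In numbers 1 and 2, 24 of the 41 genes were higher and 3 lower, 27 in all, where 37.5% of all genes were called (3111 higher and 2955 lower). The highest were MKI67 at 0.52 (log2, SE 0.06), CENPF at 0.40 (SE 0.05), BUB1B at 0.38 (SE 0.03), KIF11 at 0.34 (SE 0.03) and BUB1 at 0.31 (SE 0.03). The 3 lower ones were CDT1 at -0.25 (SE 0.04), CDKN1A at -0.23 (SE 0.04) and E2F1 at -0.11 (SE 0.03). By role the median was 0.30 for spindle genes, 0.14 for mitotic kinases, 0.13 for S-to-M cyclins, 0.10 for licensing genes, 0.08 for synthesis genes and 0.01 for G1 to S genes. BUB1, KIF11, KIF20A and TPX2 had all 12 libraries of numbers 1 and 2 above all 12 of numbers 3 and 4, which is 9.76% of the 41 genes against 1.12% of all genes. In KIF20A they ran from 109 to 125 CPM against 87.9 to 107 CPM, and in TPX2 from 478 to 534 CPM against 376 to 453 CPM.

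Within each pair fewer genes differed, but these contrasts set 6 libraries against 6, where the split above set 12 against 12. With fewer libraries and a split chosen on the values, fewer calls follow in part from the design. Other pairings of the numbers were not contrasted, so the counts do not show which numbers belong together. Between numbers 1 and 2, 11 of the 41 were called, where 34.1% of all genes were. Of these, 7 were higher in number 1, among them MKI67 at 0.27 (SE 0.08), PLK1 at 0.20 (SE 0.05) and E2F1 at 0.18 (SE 0.04). The 4 higher in number 2 were CENPE (-0.39, SE 0.07), CDKN1A (-0.34, SE 0.06), CDC25C and RRM1. Between numbers 3 and 4, 8 were called, where 28.3% of all genes were, and without dexamethasone-treated K154R replicate 3 there were 15. BUB1, BUB1B, CENPE (0.26, SE 0.07) and TOP2A were higher in number 3, and CDT1 (-0.27, SE 0.06), CDC25C (-0.29, SE 0.06), MCM2 and MCM5 were higher in number 4.

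Other measures moved with the number too, and their part in these differences was not tested. The median share of mitochondrial counts was 11%, 11.8%, 10.8% and 9.45% in numbers 1 to 4. Library totals ran from 28340834 to 42072021 counts in number 1, 30913341 to 41947724 in number 2, 24149532 to 35785284 in number 3 and 23863672 to 35027597 in number 4. With mitochondrial genes left out of totals and scaling, the same 34 genes were called by number. NR3C1 had a span of 0.49 (adjusted p = 9.25e-08 by edgeR), highest in number 2 and lowest in number 3, whereas FKBP5 had 0.08 (adjusted p = 0.65). Summed hepatocyte markers had a median of 57100 CPM in number 1 and of 50500, 50000 and 50200 CPM in the others. Summed fibroblast markers, nearly all PDGFRB, had medians of 24.8, 17.9, 33.4 and 29.2 CPM, and endothelial ones of 1.62, 1.87, 2.05 and 1.67 CPM. Leukocyte markers had 832, 526, 920 and 649 CPM, with PTPRC and CD3E at 0.

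Gene length was another such measure. Across genes, the difference of numbers 1 and 2 minus 3 and 4 had a Spearman correlation with length of 0.39 over the 41 genes and of 0.20 over all 16196, which share the same libraries and are not independent replicates. All genes were split by length into 4 bins of equal size. From the shortest to the longest bin the median difference was -0.046, -0.028, 0.013 and 0.055 (log2). In the same bins the 7, 20, 9 and 5 genes of the list had medians of 0.04, 0.12, 0.15 and 0.06. The median of the listed genes was above that of all genes except in the longest bin. There the 2 medians were about equal, at 0.06 over 5 listed genes and 0.055. The part of length in these differences was not tested.

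**Figure D5:**
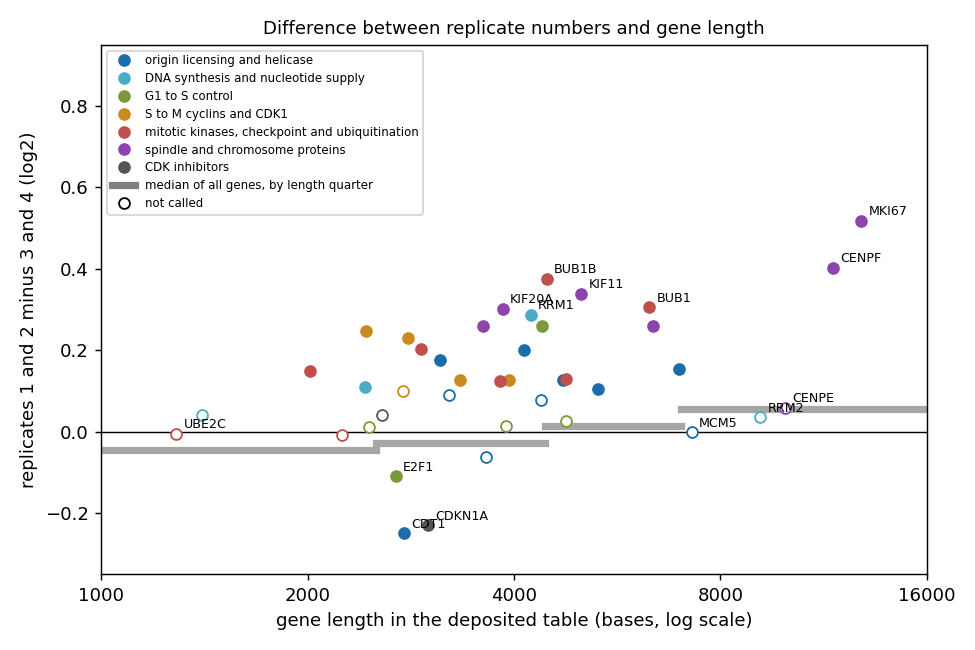
Log2 difference of replicate numbers 1 and 2 minus 3 and 4 against gene length in bases (log axis) for the 41 genes, filled where called, with grey bars at the median of all genes in each of 4 length bins. The medians of all genes go from -0.046 to 0.055, and most listed genes lie above them.

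Other genes of the same pathways were taken from 5 lists of 137 genes that share no member with the 42. The lists were chosen with earlier results of these data known, so single calls in them describe those genes only. For comparison, 1.06% of all genes tested were called in the average response, and their share below zero is given above. In the average dexamethasone response 0 of 44 other replication genes were called, with 40 below zero and a median of -0.05; 3 had an unadjusted p under 0.05. GMNN, geminin, the inhibitor of CDT1, had -0.13 (SE 0.06, adjusted p = 0.619 by edgeR) and POLE2, a subunit of DNA polymerase epsilon, had -0.12 (SE 0.05). Of 51 other mitotic genes 41 were below zero, with a median of -0.03, and 1 was called: NEK2, a centrosome kinase, fell by 0.24 (log2, SE 0.06, adjusted p = 0.0356). Of 19 tested genes of G1 to S control 0 were called and 11 were below zero. Of 5 other CDK inhibitors 0 were called. Of 16 p53 targets, to which CDKN1A belongs as well, 1 was called: TP53INP1, which promotes stress-induced cell death and autophagy, rose by 0.46 (SE 0.08, adjusted p = 0.0016), and 9 of the 16 were above zero.

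By replicate number, 39 of 44 other replication genes, 17 of 19 G1 to S genes, 41 of 51 mitotic genes, 4 of 5 CDK inhibitors and 14 of 16 p53 targets were called, against 63.4% of all genes. In numbers 1 and 2 against 3 and 4, other mitotic genes were higher in 36 cases and lower in 1, and other replication genes in 20 and 1. Among the 16 p53 targets 2 were higher and 5 lower, a share near that of all genes. In this contrast 37.5% of all genes tested were called. ANLN, which builds the cleavage furrow, had 0.20 in number 1, 0.20 in number 2, -0.14 in number 3 and -0.26 in number 4 (log2 from the mean of the numbers). CDKN2A, the gene of p16 and ARF, had the widest span of the other CDK inhibitors, 0.87 (adjusted p = 1.34e-07), and was high in numbers 2 and 4 at 0.47 and 0.30. It thus alternated with the number, in a pattern unlike that of the mitotic genes.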

How the data were processed

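Poly(A) RNA libraries of 24 cultures of an established cell line were analysed from a table of raw counts per gene that the authors deposited, with gene lengths in a further column. Per the submitters' processing notes, reads were handled with bcl2fastq 2.20.0.422, cutadapt 3.7, STAR 2.7.6a and featureCounts 2.0.3 on GRCh38.p13. The sources used here do not give the strand setting, the treatment of multi-mapping reads or the annotation release, so genes that overlap others or have near copies are less certain. Samples were grouped by their titles. The number of columns of per-sample values that could not be mapped was 0.

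The software was R 4.3.3 with edgeR 4.0.16 and limma 3.58.1. After filterByExpr, 16196 genes remained; libraries were scaled by TMM and fitted by quasi-likelihood with 1 mean per group over 24 libraries, without a block; replicate number was tested in a fit of group and number. Calls are at a Benjamini-Hochberg adjusted p under 0.05 over all genes tested. SE is the absolute log2 difference divided by the root of F, and 95% intervals use t quantiles at 18 residual degrees of freedom (15 with numbers). CPM values carry the TMM factors, and scores are means of log2 CPM with a prior count of 2. p-values measure the spread between these libraries. That spread, more than counting error, limits precision: the lowest chi-square per degree of freedom among replicates was 12.1, so no pair of them agreed within sampling noise. The fits were tested on simulated data.

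The members and lists were chosen with earlier results of these data known. Named genes were the 8 with the smallest p in the average response, the 8 with the smallest p by replicate number, CDKN1C, CDKN1A, CCND1 and MKI67, and up to 4 of each other list per test; up to 4 per contrast were followed over the alternatives. Other members are named to show a role's range or pattern, after their values were seen. Up to 8 promoters were planned, and 1 per role is shown, with RefSeq sequence.

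To check whether replicate numbers pair libraries, deviations from the group means were correlated over all genes tested. The correlation of every same-number pair was over 0.1 in K154R (lowest 0.264), in K154Q (0.381), in the difference of these responses (0.183), all 3 vehicle contrasts (0.31, 0.306 and 0.265) and K154Q against K154R under dexamethasone (0.183), but not in WT (0.05) or in the other contrasts; for the average 55 of 60 did. Alternatives were DESeq2 1.42.0, the replicate block, RLE factors, no low-count filter, no mitochondrial genes, only the groups compared, and each library left out. The 3 contrasts between numbers, and the direction counts and block fit with libraries left out, were added after seeing the data.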

Additional observations from a re-analysis of the deposited data

Results flagged for a closer look

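In groups of 4 libraries, 1 library stood apart from the other 3 by more than Dixon's 95% critical value in 3 of the 108 groups checked; chance flags about 1 in 20. GINS2 had 66.9 CPM in vehicle-treated K154R replicate 2, against 53.7, 53.8 and 54.2 CPM in the others. MKI67 had 563 CPM in vehicle-treated K154R replicate 1, against 318, 329 and 358 CPM. The replication score was 7.15 (log2 CPM) in dexamethasone-treated K154Q replicate 3, against 7.28, 7.29 and 7.30.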

How the results depend on the processing

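Of 1737 values recomputed under an alternative, 1733 kept their direction and side of the threshold, and 0 of the 41 genes were called in any of the 13 contrasts of groups under any alternative run. Single genes among these values were only those followed, up to 4 per contrast. Directions over all 41 genes were less stable. With single libraries left out, the number below zero ran from 28 to 39 in WT, 21 to 33 in K154R and 17 to 33 in K154Q. With each library left out in turn, the GINS2 response in K154Q minus K154R (0.06) ran from -0.029 to 0.11, turning without vehicle-treated K154R replicate 2. GINS2 in K154Q against K154R in vehicle (-0.08) ran from -0.11 to 0.003, and UBE2C under dexamethasone (-0.06) from -0.13 to 0.038; the cause was not tested. Genes called between numbers 3 and 4 (8) ran from 7 to 15, with 15 without dexamethasone-treated K154R replicate 3, and those called by replicate number (34) from 29 to 37. With the replicate block 0 of the 41 genes were called in each contrast; over all genes it gave 128, 200, 117 and 685 calls in WT, K154R, K154Q and the average against 26, 50, 21 and 172. Without a filter these were 78, 109, 72 and 325, and with DESeq2 55, 77 and 47 in the 3 genotypes. With only the groups compared they were 16, 24 and 12, and K154R had 32, 29, 33 and 23 without vehicle replicate 2 or 3 or dexamethasone replicate 2 or 4. Genotype contrasts over all genes (0) gave 15, 14 and 12 in vehicle and 8, 18 and 19 under dexamethasone without a filter, 4, 4, 2, 2, 5 and 2 with the block, and 1 for K154Q against WT under dexamethasone with DESeq2 or with only those groups. The 4 libraries per group limit single-gene differences to the intervals given.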
